A study of Mus musculus with 8 samples.

Results

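*Ddah1* encodes dimethylarginine dimethylaminohydrolase 1, an enzyme that breaks down inhibitors of nitric oxide synthesis, and it had the largest rise among the 22206 probe sets measured in gastrocnemius (GAS) muscle after 12 weeks of MYTHO-KD. It is described here together with 9 further genes of nitric oxide and arginine metabolism, *Ddah2*, *Nos1*, *Nos2*, *Nos3*, *Arg1*, *Arg2*, *Prmt1*, *Ass1* and *Asl*. The 10 genes were taken by symbol from the 21980 gene entries of the table, and each had 1 probe set, a group of short probes for 1 gene. *Ddah1* leads the set because its rise was already known, so its values are a description with no test. The other genes were picked for their place in the pathway.

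Male C57/Bl6j mice aged about 10 weeks received an intramuscular adeno-associated virus (AAV) whose short hairpin RNA (sh-RNA) targets MYTHO, and an AAV with a scramble sh-RNA went into the opposite leg. At 22 weeks of age, RNA of 4 MYTHO-KD and 4 scramble muscles was hybridized to Clariom S Mouse arrays. Both viruses were of serotype 1 and used the U6 promoter, which is not limited to muscle fibres, so any transduced cell could carry the sh-RNA. For each probe set the authors deposited 1 average and 1 standard deviation (SD) per group on the log2 scale, and these stand in for the values of the 4 muscles throughout. Nothing in the labels says which arrays came from the same mouse.

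Nitric oxide synthases turn arginine into citrulline and nitric oxide. Protein arginine methyltransferases methylate arginine in proteins, and when those proteins are degraded, free asymmetric dimethylarginine is released, which competes with arginine at the synthases. DDAH1 hydrolyses it to citrulline and dimethylamine. Arginases split arginine to ornithine and urea, while argininosuccinate synthase and lyase rebuild arginine from citrulline. In skeletal muscle most nitric oxide comes from the neuronal synthase, held beneath the fibre membrane by the dystrophin complex.

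The target of the sh-RNA, *Mytho*, is listed under its earlier symbol *D230025D16Rik*. Its average was 7.71 in MYTHO-KD and 10.02 in scramble, with authors' SDs of 0.66 and 0.37, a log2 difference of -2.31 (adjusted p = 0.0138, limma's moderated test). Of the 8 muscle fibre markers, all were marked as expressed in both groups, and *Acta1*, *Myh4* and *Atp2a1* stood at the ceiling of 19.93 in either group. The median difference over all probe sets was -0.01, and 248 of them, or 1.12%, were called, meaning at least 2-fold apart with an unadjusted p under 0.05. Higher calls made up 0.860% and lower calls 0.257%. In the same muscles 3 of 8 macrophage markers (*Cd68*, *Lyz2* and *C1qb*) and 2 of 6 fibroblast markers (*Lum* and *Col3a1*) were called higher, against that 0.860%. The adjusted p-values of *C1qb* (0.0754) and *Col3a1* (0.102) missed 0.05 (limma). Those of *Cd68*, *Lyz2* and *Lum* were 0.0182, 0.0277 and 0.0443. In bulk muscle, more cells of a type and more RNA per cell cannot be told apart.

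The promoters of the DDAH genes are shown because these genes belong to the same family while their differences between the groups lay far apart. Each window is the 250 bases before the RefSeq start on the plus strand of GRCm38.p6, the assembly behind the mm10 annotation of the arrays. They are chr3:145758442-145758691 for *Ddah1* and chr17:35058785-35059034 for *Ddah2*, written 5′ to 3′ with matches to the searched motifs in capitals.
Ddah1: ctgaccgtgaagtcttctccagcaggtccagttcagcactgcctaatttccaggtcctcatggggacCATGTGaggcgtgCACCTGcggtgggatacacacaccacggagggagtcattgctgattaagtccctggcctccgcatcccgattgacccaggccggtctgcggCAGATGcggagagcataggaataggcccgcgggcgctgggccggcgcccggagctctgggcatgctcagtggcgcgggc
Ddah2: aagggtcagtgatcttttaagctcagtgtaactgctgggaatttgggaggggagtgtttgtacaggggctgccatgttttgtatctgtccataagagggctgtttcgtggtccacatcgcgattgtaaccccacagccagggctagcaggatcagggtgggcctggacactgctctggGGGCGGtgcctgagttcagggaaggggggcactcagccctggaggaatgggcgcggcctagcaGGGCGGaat
The motifs searched on both strands were the GC box GGGCGG, the TATA box TATAAA, the CCAAT box CCAAT, the FoxO motif TGTTTAC and the E-box CANNTG. The *Ddah1* window held 3 E-boxes and the *Ddah2* window 2 GC boxes, with no overlap between motifs, and neither window held the other motifs. Among 32851 promoter windows of the same length, 66.2% held an E-box, 32.7% a GC box, 33.8% a CCAAT box, 12.4% a TATA box and 3.17% the FoxO motif. The letters CG occurred 17 times in the *Ddah1* window and 7 times in the *Ddah2* window, against a median of 6 over all windows, and G and C made up 64% and 58% of the bases against a median of 52.4%. These are matches of letters, and binding was not measured. The RefSeq start of *Ddah1* lies after the start annotated with the arrays (145758675), so the last bases of its window fall inside the gene as annotated there.

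The difference in *Ddah1* was the largest rise of the table. The gene lies on chromosome 3 from 145758675 to 145894277 (mm10, plus strand). Its average was 7.80 (log2) in scramble with an authors' SD of 0.41, and 11.59 in MYTHO-KD with an SD of 0.84. The log2 difference was 3.79, which is 13.8-fold on the scale of these arrays. The probe set was marked as expressed in both groups. Few probe sets lack this mark, 596 of 22206 in scramble and 846 in MYTHO-KD, so it says little about the level in scramble muscles. The MYTHO-KD muscles also varied more among themselves, with an SD 2.05 times that of scramble.

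Although the values of the 4 muscles of a group were not used, their SDs limit how far they can spread. From the lowest to the highest of 4 values the distance is at most 2.45 SDs. Provided that the deposited SD is a sample SD and that the average lies among the values, no MYTHO-KD muscle was under 9.53 for *Ddah1* and no scramble muscle was above 8.80. The groups therefore could not overlap. The same limit kept the groups apart in 0.324% of all probe sets and in 1 of the 10 genes, *Ddah1* itself, which was chosen for this contrast.

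*Ddah2*, on chromosome 17 from 35059035 to 35062099, encodes the second member of the family, a form often found with the endothelial and inducible synthases. Its average was 6.28 in scramble (authors' SD 0.41) and 6.31 in MYTHO-KD (SD 0.19). The log2 difference was 0.03, with a 95% interval from -0.44 to 0.50 (adjusted p = 0.981, limma). At the upper end of this interval *Ddah2* would be 1.41-fold higher, which is well short of the 13.8-fold of *Ddah1*. The contrast between the genes was not tested, since *Ddah1* was chosen for its size.

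**Figure D1:**
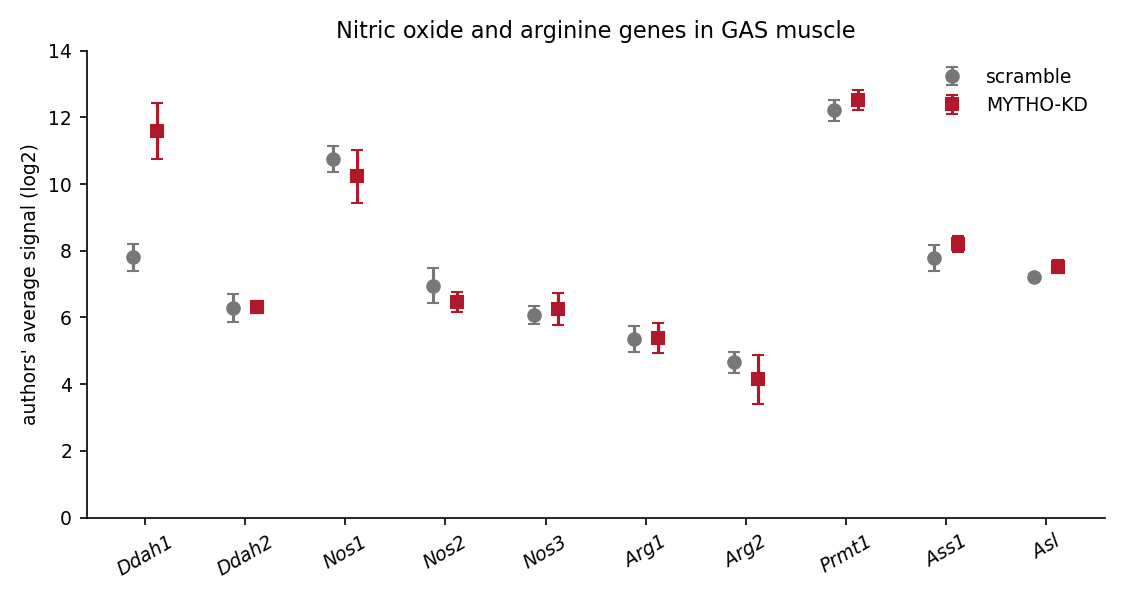
Authors' average signal (log2, vertical axis) of the 10 genes in scramble (grey circles) and MYTHO-KD (red squares) GAS muscle, 4 arrays per group, with bars of 1 authors' SD on either side. *Ddah1* stands at 7.80 and 11.59 with bars far apart, while the largest gap among the other genes is 0.52; levels of different probe sets cannot be compared.

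None of the 9 tested genes was called, against 1.12% of all probe sets in either direction, and none had an unadjusted p under 0.05, against 6.48% of all probe sets higher and 5.52% lower. None had an adjusted p under 0.05 either, against 0.275%. Averages were higher in MYTHO-KD for 6 and lower for 3. The median log2 difference of the 9 was 0.03, beside -0.01 over all probe sets. Their differences ran from -0.52 to 0.42 and their adjusted p-values from 0.458 to 0.990 (limma).

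Among the nitric oxide synthases, *Nos1* encodes the neuronal form. It lies on chromosome 5 from 117781032 to 117958840, and its average was 10.75 in scramble (authors' SD 0.39) and 10.23 in MYTHO-KD (SD 0.80). The log2 difference of -0.52 had a 95% interval from -1.28 to 0.24 (adjusted p = 0.608, limma). As for *Ddah1*, the SD in MYTHO-KD was 2.05 times that in scramble, and the interval includes both no difference and a fall of more than 2-fold.

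*Nos2* encodes the inducible synthase, which activated macrophages can make in large amounts. Its probe set, on chromosome 11 from 78920787 to 78960254, averaged 6.95 in scramble (authors' SD 0.52) and 6.47 in MYTHO-KD (SD 0.30). The log2 difference was -0.48 (95% interval -1.04 to 0.08, adjusted p = 0.489, limma). All 8 macrophage markers had higher averages in MYTHO-KD, with a median log2 difference of 0.82, and the largest was that of *Cd68* (2.53, adjusted p = 0.0182). The *Nos2* average lay on the other side of zero from these markers, though its interval reached a small rise.

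*Nos3*, the endothelial synthase, lies on chromosome 5 from 24364810 to 24384474. Its average was 6.07 in scramble (authors' SD 0.26) and 6.26 in MYTHO-KD (SD 0.48), a log2 difference of 0.19 (95% interval -0.33 to 0.71, adjusted p = 0.826, limma). The 8 endothelial markers all had higher averages in MYTHO-KD as well, with a median of 0.35 and 0 called. The largest of them were 0.75 for *Kdr*, 0.64 for *Eng* and 0.53 for *Tek*, with adjusted p-values of 0.190, 0.364 and 0.432. Their part in the *Nos3* value was not tested.

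Of the arginases, *Arg1* is the cytosolic form of liver and of some macrophages and *Arg2* the mitochondrial form. *Arg1*, on chromosome 10 from 24915207 to 24927484, averaged 5.36 in scramble (authors' SD 0.39) and 5.38 in MYTHO-KD (SD 0.45). Its log2 difference was 0.02 (95% interval -0.54 to 0.58, adjusted p = 0.990, limma). *Arg2*, on chromosome 12 from 79130777 to 79156301, averaged 4.65 (authors' SD 0.31) and 4.15 (SD 0.73), a log2 difference of -0.50 (95% interval -1.19 to 0.19, adjusted p = 0.583, limma). Both probe sets were dim, under the 30th percentile of the table (5.715), where a fall can be hidden, although the software marked both as expressed.

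*Prmt1* encodes the main arginine methyltransferase that forms asymmetric dimethylarginine in proteins, the source of the DDAH1 substrate. On chromosome 7 from 44975989 to 44986492, it averaged 12.21 in scramble (authors' SD 0.31) and 12.52 in MYTHO-KD (SD 0.30). The log2 difference was 0.31 (95% interval -0.14 to 0.76, adjusted p = 0.613, limma). Its upper limit corresponds to a 1.70-fold rise, so a change of 2-fold lay outside the interval.

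*Ass1* and *Asl* encode argininosuccinate synthase and lyase, which act in sequence to return citrulline to arginine. *Ass1*, on chromosome 2 from 31470207 to 31520672, averaged 7.79 in scramble (authors' SD 0.39) and 8.21 in MYTHO-KD (SD 0.24). Its log2 difference of 0.42 (95% interval -0.05 to 0.89, adjusted p = 0.470, limma) is uncertain in origin as well, since the probe set is also assigned to the pseudogene *Gm5424*. *Asl*, on chromosome 5 from 130011258 to 130025132, averaged 7.20 (authors' SD 0.09) and 7.52 (SD 0.19). Its log2 difference was 0.32 (95% interval -0.03 to 0.67, adjusted p = 0.458, limma).

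The averages of *Ass1* and *Asl* were both higher in MYTHO-KD, with intervals that include 0. *Asl* had the lowest unadjusted p of the 9 genes (0.0685, limma), which missed the threshold. For none of the 9 genes did the 95% interval reach a 2-fold rise. For 3 of them, *Nos1*, *Nos2* and *Arg2*, it reached a 2-fold fall. Among all 10 genes the SD was larger in MYTHO-KD for 6, beside 48.1% of all probe sets.

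**Figure D2:**
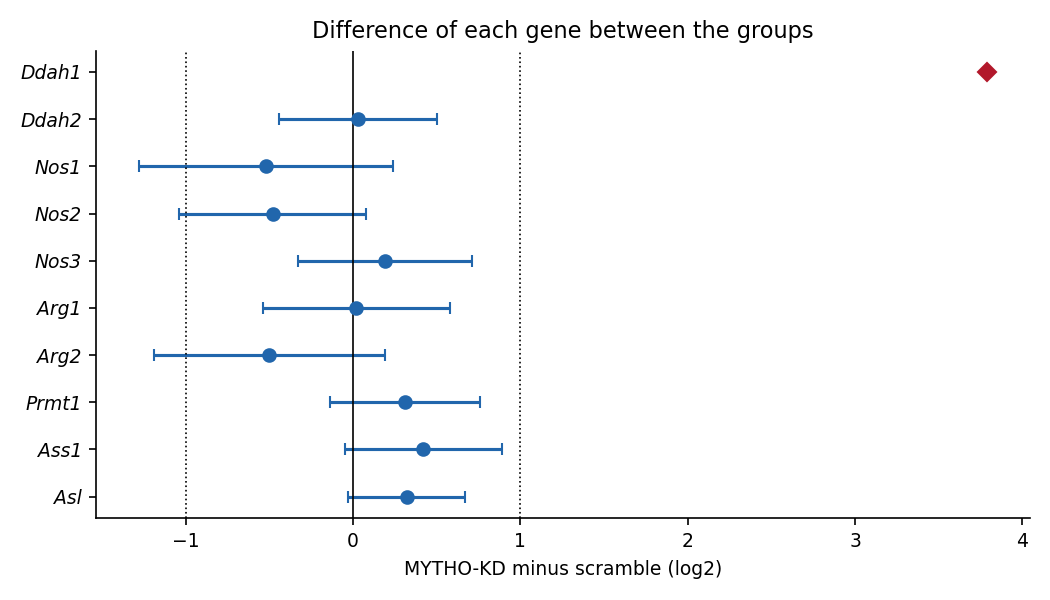
Log2 difference of MYTHO-KD minus scramble (horizontal axis) for each gene, with 95% intervals from limma's moderated test for the 9 tested genes (blue circles). *Ddah1* (red diamond, 3.79) has no interval because it was chosen for its rise; dotted lines mark 2-fold, and the other 9 intervals all include 0.

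A further 72 genes around the pathway, in 8 lists picked by function, held 1 higher call (1.39%) and 2 lower calls (2.78%), against 0.860% and 0.257% of all probe sets. Averages were higher in MYTHO-KD for 36 and lower for 36, with a median difference of 0.01. Each of the 3 called genes stands in a different list.

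*Gamt* rose. It encodes guanidinoacetate methyltransferase, which completes the synthesis of creatine from arginine and glycine. Its average was 8.86 in scramble (authors' SD 0.39) and 10.80 in MYTHO-KD (SD 0.65), a log2 difference of 1.94 (standard error 0.304, adjusted p = 0.0292, limma). *Gatm*, the enzyme before it and the one that uses arginine, averaged 7.12 (authors' SD 0.33) and 6.41 (SD 0.35). Its difference of -0.71 did not reach 2-fold (unadjusted p = 0.00773, adjusted p = 0.218). The creatine transporter *Slc6a8* differed by 0.20 (adjusted p = 0.783), and 1 of the 5 creatine genes was called.

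*Calm3* fell. It encodes calmodulin, which every nitric oxide synthase binds and many other enzymes need. Its average was 15.80 in scramble (authors' SD 0.26) and 14.42 in MYTHO-KD (SD 0.47), a log2 difference of -1.38 (standard error 0.238, adjusted p = 0.0392, limma). The difference of *Calm2*, which encodes the same protein and was added after its value was seen, was -0.14 (adjusted p = 0.793). The list of synthase partners had 15 genes and no other call. *Dynll1*, a light chain that binds the neuronal synthase, differed by 0.46 (adjusted p = 0.413).

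In polyamine metabolism, which starts from ornithine, the probe set shared by *Amd1* and *Amd2* fell. It measures adenosylmethionine decarboxylase, and since it matches both genes its signal cannot be given to either. Its average was 18.34 in scramble (authors' SD 0.17) and 16.81 in MYTHO-KD (SD 0.88), a log2 difference of -1.53 (standard error 0.349, unadjusted p = 0.000912), while its adjusted p of 0.100 missed 0.05. Spermine oxidase (*Smox*, -0.87, adjusted p = 0.347) and spermine synthase (*Sms*, -0.77, adjusted p = 0.267) also had lower averages without a call. The antizyme *Oaz2* (0.61, adjusted p = 0.268) and the antizyme inhibitor *Azin1* (0.53, adjusted p = 0.320), named after their values were seen, had higher averages without a call. Of the 11 polyamine genes, 6 had higher and 5 lower averages.

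The adjusted p-values of *Gamt*, *Calm3* and *D230025D16Rik* depended on the variance model. With unmoderated variances they were 0.225, 0.224 and 0.173, and they ranged over all 8 settings from 0.00725 to 0.408, from 0.00726 to 0.417 and from 0.00250 to 0.363. All 3 genes were called at 2-fold and the unadjusted threshold in each setting.

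**Figure D3:**
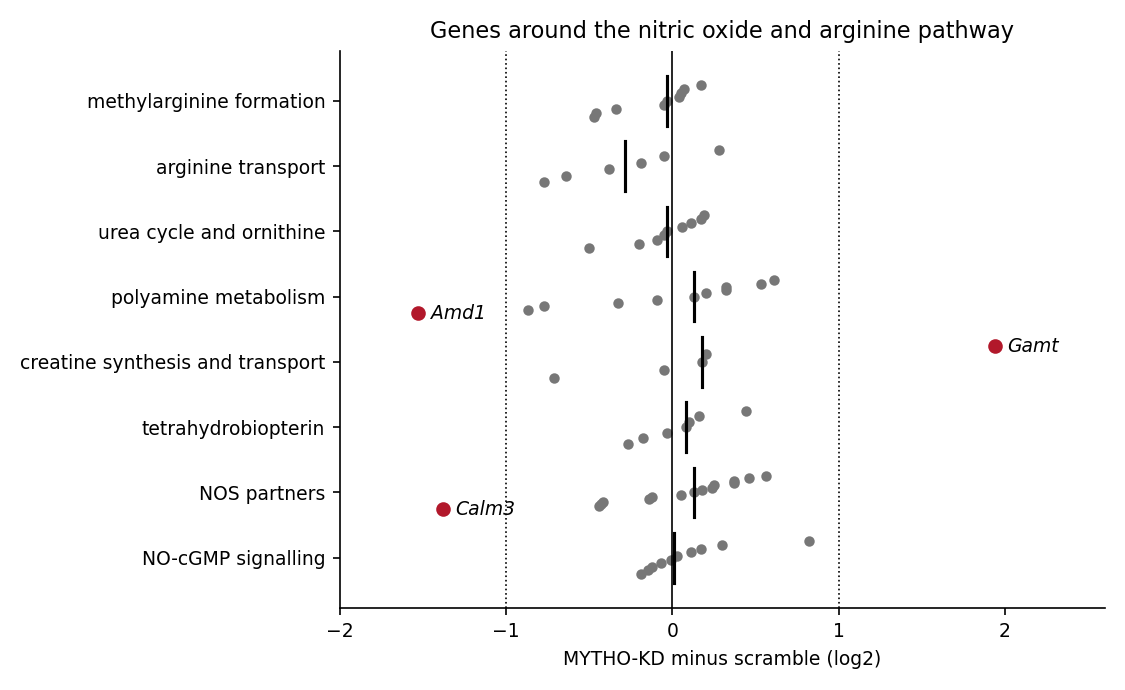
Log2 difference of MYTHO-KD minus scramble (horizontal axis) for the genes of 8 lists (rows), with points for genes, black ticks for list medians and dotted lines at 2-fold. The 3 called points are red: *Gamt* at 1.94, *Amd1* (a probe set shared with *Amd2*) at -1.53 and *Calm3* at -1.38.

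The remaining lists held 0 calls at 2-fold. Of 6 genes of arginine transport, 5 had lower averages, with a median of -0.29. The largest differences were those of *Slc7a2*, a cationic amino acid transporter, from 10.90 to 10.13 (-0.77, unadjusted p = 0.00579, adjusted p = 0.200), *Slc7a6* (-0.64, adjusted p = 0.321) and *Slc3a2*, the heavy chain that pairs with *Slc7a6* (-0.38, adjusted p = 0.421). Among the 9 other genes of methylarginine turnover, *Prmt5*, which forms symmetric dimethylarginine, differed by -0.46 (unadjusted p = 0.0175, adjusted p = 0.301), *Prmt3* by -0.47 and *Prmt8* by -0.34, and the median was -0.03. In the urea cycle and ornithine list of 9 genes the largest differences were -0.50 for the ornithine carrier *Slc25a15*, -0.20 for *Pycr1* and 0.19 for *Oat*.

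Tetrahydrobiopterin is a cofactor of the synthases. Its 7 genes had a median of 0.08. *Qdpr*, which regenerates tetrahydrobiopterin from its dihydro form, differed by 0.44 (unadjusted p = 0.0157, adjusted p = 0.287, limma) and *Gchfr* by -0.18. The 10 genes of nitric oxide and cGMP signalling had a median of 0.01. The cGMP-dependent kinase *Prkg1* averaged 10.58 in scramble (authors' SD 0.48) and 11.40 in MYTHO-KD (SD 0.55), a difference of 0.82 that stayed under 2-fold (unadjusted p = 0.0170, adjusted p = 0.297). The guanylate cyclase subunit *Gucy1a1* differed by 0.30 and the kinase substrate *Irag1* by -0.19.

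*Ddah1*, *Arg1*, *Ass1* and *Asl* are also strongly expressed in liver, so liver markers are given beside them. Of 8 liver markers, 7 had higher averages in MYTHO-KD, with a median of 0.24 and 1 call (12.5%, against 0.860% of all probe sets), *Alb* (2.66, authors' SDs 2.28 and 1.34, adjusted p = 0.291). With unmoderated variances *Alb* was not called. *Serpina1c* differed by 1.16 and *Ttr* by 0.80, with adjusted p-values of 0.599 and 0.482. Their part in the value of *Ddah1* was not tested. The urea cycle genes *Cps1* and *Otc* of the same list, named after their values were seen, differed by -0.09 and 0.17, and *Otc* was marked as not expressed in either group.

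The other cell type lists showed the following. The median was 0.77 for 6 fibroblast markers, with *Lum* at 1.49, *Col3a1* at 1.43 and *Col1a1* at 0.82. For 5 markers of nerve and Schwann cells it was -0.17 with 0 calls, the largest being *Mbp* (-0.42) and *Sox10* (-0.30). For 4 smooth muscle markers it was 0.04 with 0 calls, the largest being *Myh11* (0.25), *Cnn1* (0.22) and *Tagln* (-0.15). No fibre marker was called. For *Acta1*, *Myh4*, *Atp2a1*, *Tnnt3* and *Myh2* a 2-fold rise was out of reach, since their scramble averages lay at or near the ceiling of 19.93. *Myh1* differed by 0.59. The MYTHO-KD averages of *Mb* (19.75) and *Myh2* (19.91) lay close to the ceiling, so that their differences of 0.93 and 0.41 are limited by it. For *Mb* the unadjusted p was 0.000409 and the adjusted p 0.0754 (limma). The part of the macrophage and fibroblast markers in the value of *Ddah1* was not tested.

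With 2 groups, likeness to *Ddah1* can be measured only as the gap between log2 differences. Since *Ddah1* had the largest rise, its nearest probe sets are by construction the next largest rises. The 3 nearest were *Mt2*, a metallothionein, at 3.69, the growth factor *Igf2* at 3.43 and the myosin binding protein *Mybph* at 3.13, with gaps of 0.10, 0.36 and 0.66. For *Mt2* the average went from 11.07 in scramble (authors' SD 0.88) to 14.76 in MYTHO-KD (SD 1.80). Its SDs were thus about as unequal as those of *Ddah1*, and larger.

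The genes around *Ddah1* on chromosome 3 were examined, since position was not used to choose it. Within 1000 kb of its lower coordinate lay 27 other probe sets with a symbol, of which 1 was called higher and 0 lower, against 0.860% and 0.257% of all probe sets, with a median difference of -0.12. The exception was *Cyr61*, a secreted matrix protein gene that responds quickly to growth factors and stretch, whose lower coordinate lies 112 kb before that of *Ddah1* and which is read from the minus strand. Its average was 10.90 in scramble (authors' SD 0.56) and 12.12 in MYTHO-KD (SD 0.61), a log2 difference of 1.22 (unadjusted p = 0.00291), with an adjusted p of 0.154 (limma).

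The next genes on that side, *Znhit6* and *Col24a1*, differed by -0.18 and -0.36. On the far side of *Ddah1*, *Bcl10*, *2410004B18Rik* and *Syde2* differed by -0.23, -0.07 and -0.42, and *Syde2* had an unadjusted p of 0.0326 without reaching 2-fold. Apart from *Cyr61*, the 26 probe sets ran from -0.42 to 0.36.

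**Figure D4:**
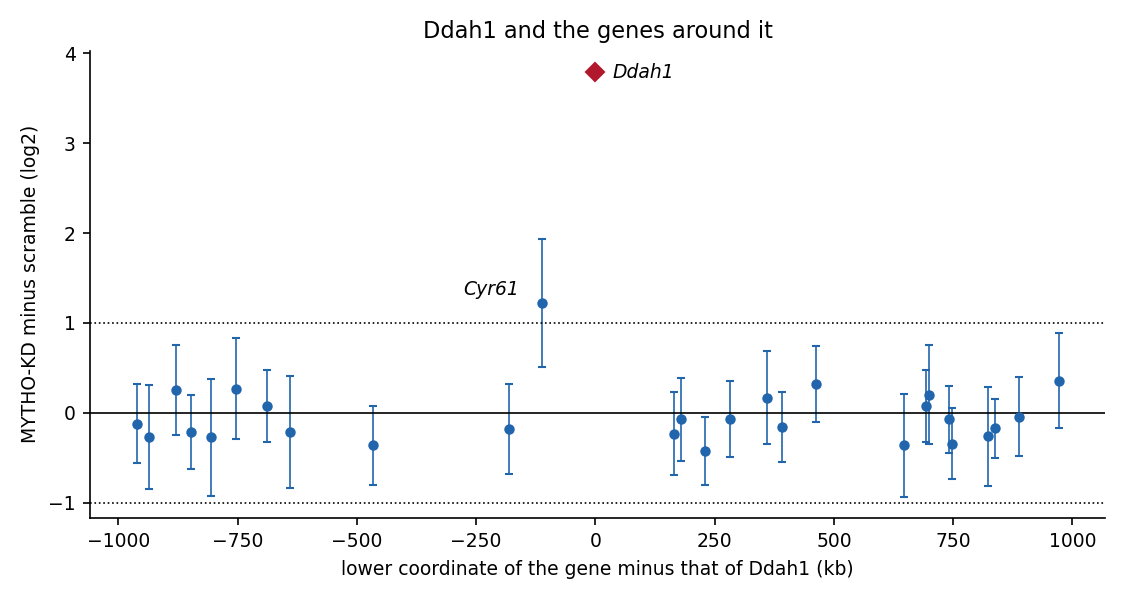
Log2 difference of MYTHO-KD minus scramble (vertical axis) against the distance of each gene's lower coordinate from that of *Ddah1* in kb (horizontal axis), with 95% intervals from limma's moderated test and dotted lines at 2-fold. *Ddah1* (red diamond, 3.79, no interval) and *Cyr61* (1.22) stand above the other 26 probe sets, which lie between -0.42 and 0.36.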

How the data were processed

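RNA of GAS muscle was measured on Clariom S Mouse arrays, 4 per group, and samples were grouped by the treatment in their labels. Signals were processed by the authors with SST-RMA (Transcriptome Analysis Console 4.0.1, default parameters), a method that stretches low signals and so bears on fold sizes. For each of 22206 probe sets the authors deposited an average and an SD per group on the log2 scale, flags of expression and annotation (mm10). Their own fold changes and p-values are in the table too and were not used. Which kind of average they took is not stated. Were it not a plain mean, p-values here would be somewhat low.

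The test was limma's moderated test (limma 3.58.1, R 4.3.3), computed from these averages and SDs. The group variances were averaged, giving 6 residual degrees of freedom, and squeezeVar moderated them with a prior SD of 0.284 and 5.85 prior degrees of freedom. Tests were two-sided, and the 22206 p-values were adjusted together (Benjamini-Hochberg). Calls required a 2-fold difference and an unadjusted p below 0.05, as the study's methods do. The script was tested on simulated data. The p-values measure only the spread between these samples, and the number of arrays limits precision. The test treats the groups as independent, although the scramble virus went into the opposite leg. If the arrays came from legs of the same mice, p-values and intervals could be too large or too small.

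The genes and lists were chosen with earlier results of these data known. Named from each list are its called genes and the 3 with the largest difference. Some of these are not reported here. *Calm2*, *Oaz2*, *Azin1*, *Cps1* and *Otc* were added after their values were seen. Figures were drawn with matplotlib 3.10.9. Alternatives changed the variance model, the filters on dim or unexpressed probe sets, the probe sets per gene, the centring and the thresholds.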

Additional observations from a re-analysis of the deposited data

How the results depend on the processing

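Under all 8 other settings of the variance, the filters and the centring, the 9 tested genes kept their direction and stayed uncalled wherever they could be computed. This was fixed in advance. The variance models and filters leave log2 differences as they are, and the centring subtracted a median of only -0.01. The largest of the 9 differences, -0.52, lies far from the 2-fold that a call needs. *Arg1* and *Arg2* were left out by the filter on dim probe sets. The adjusted p-values of the 9 genes could change, and ranged from 0.380 for *Asl* to 0.992 for *Arg1*. *Ddah1* differed by 3.79 or 3.80, for the same reason. The counts of calls followed the threshold. A threshold of 1.5-fold gave 787 higher and 500 lower calls over all probe sets, with 3 pathway genes higher and 7 lower. At an unadjusted p under 0.05 whatever the fold, these were 1439 and 1225, with 7 and 8 pathway genes and 10 markers of other cell types higher. At an adjusted p under 0.05, they were 40 and 21, with 1 pathway gene higher, 1 lower and 3 markers. The probe set shared by *Amd1* and *Amd2* was called under all 8 settings, and so was *Cyr61*. Their adjusted p-values in these fits ran from 0.0872 to 0.532 and from 0.0786 to 0.510. Markers of other cell types called higher numbered 6 in the main fit, 5 under each other variance model and 7 after either centring.

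No paired analysis was possible because the table analysed holds averages of groups. Fits that leave out a muscle in turn were not run for the same reason, nor was another probe set per gene, since each of the 10 genes has 1. Precision at low signal is limited: 846 probe sets in MYTHO-KD and 596 in scramble were not marked as expressed.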
